A study of Oryza sativa with 6 samples.

Results

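The 24-nt miRNAs of the less conserved rice families were taken from the known rice entries of the deposited table by name and length alone. A member had a family number of 800 or above, other than miR827, miR1425, miR1432, miR1861 and miR1862, and a mature sequence of 24 nt. The rule found 85 entries, which held 72 distinct sequences of 55 families, among 464 known rice entries with 337 distinct sequences. No read count entered the rule, and copies with the same mature sequence were counted once, by the copy with the most reads. The family closest to the lower end of the number range was miR812, with 10 sequences. At the length limit, 5 sequences of 23 nt fell outside, and miR1863b.2 with 388 reads was the most abundant of them, ahead of miR6246 with 34.

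The libraries held small RNAs of rice line PC, the susceptible recipient (cultivar 9311), and of P15, a line of that background carrying the introgressed resistance locus BPH15. Both lines were sampled at 0 h without insects and after 6 and 48 h of feeding by brown planthopper (BPH), a phloem-feeding insect of rice, and libraries are named by line and hour (PC-0, P15-48). Each library came from a pool of plants, and there was 1 library for each line and time, so no condition had a replicate. Tissue and age differed between the sources: the labels named leaf sheath at the four-leaf stage, and the study's methods named stems of younger seedlings with fewer leaves.

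Most plant miRNAs are cut by DICER-LIKE 1 to a shorter length, loaded into ARGONAUTE 1 and act on messenger RNAs. Rice also makes a long class of miRNA from hairpins cut by DICER-LIKE 3, which is loaded into ARGONAUTE 4 clade proteins and can direct DNA methylation at the loci of origin and at matching sites. ARGONAUTE 4 favours small RNAs with a 5′ adenine, and several of the young families lie in transposable elements, the miR812 hairpins in miniature inverted-repeat elements of the Stowaway type.

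The 10 members with the most reads are shown here because they carried nearly all reads of the class. They are written 5′ to 3′ as in the deposited table, where T stands for U, and capitals mark the seed, bases 2 to 8.
miR1876: aTAAGTGGgtttgtgggctggccc
miR1883a: aCCTGTGAcgggccgagaatggaa
miR1423-5p: aGGCAACTacacgttgggcgctcg
miR2880: aCGGTATCccgttcggacaggatg
miR2871a-5p: gACCGTAGaaactagcatagaaaa
miR1878: aCTTAATCtggacactataaaaga
miR5150-3p: aGAAGCTGcagctgtcagaagctc
miR1871: aTGGCTCTgatatcatgttggttt
miR2878-5p: tACATGTAtaaaattctgaggatg
miR1865-3p: cGAAGAATcgcagtcactagttgt

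No seed was shared among these 10 sequences. The seed of miR5150-3p was also that of miR167a-5p (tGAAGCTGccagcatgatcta), a conserved 21-nt miRNA that targets auxin response factor mRNAs, while the remainder of both sequences differed. Across the class, the pairs of members with 1 seed were miR1863a with miR1863b, miR812h with miR812s, and miR5815 with miR1881.

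The miR812 sequences are shown as a family because 7 of the 10 shared a run of at least 10 bases, on the same or the complementary strand, with another one. Capitals mark, in the first 4, a run of 12 bases present in miR812k, miR812h and miR812f, of which miR812p held 10 bases. This 12-base run was found on the printed strand in 3 of the 337 known sequences (0.89%), all of them miR812.
miR812k: acgaacggTTAAAGTTGGACgcgg
miR812h: aagacggatgaTTAAAGTTGGACa
miR812f: acggatgaTTAAAGTTGGACacgg
miR812p: gacggacgaTTAAAGTTGGgcatg
The sequences of miR812h and miR812f shared a run of 21 bases and were the same stretch in different register. In the next 3, capitals mark a run of 14 bases shared by miR812t and miR812v, and the 14 bases of miR812n-5p that are complementary to miR812t, whose sequence is also that of the 3p arm of miR812n.
miR812t: acggaaaatcATGGCTGCACTTAA
miR812v: ATGGCTGCACTTAAaatgggacgg
miR812n-5p: AAGTGCAGCCATGAgtttccgtgc
The other 3 have their seeds in capitals.
miR812o-3p: gAACGGTCaaatgttagacacgga
miR812s: aAGACGGAcaatcaaacgttggac
miR812q: aCGTTGGGtacgaatatctacggc

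The last set shows sequences that pair with each other. The arms of the miR5150 hairpin were complementary over a run of 18 bases (capitals). The members miR1863a and miR1863b began with the same 18 bases, of which 17 (capitals) were complementary to miR1873, a rice miRNA reported to restrain immunity to the blast fungus.
miR5150-5p: AGCTTCTGACAGCTGCAGtttctc
miR5150-3p: agaagCTGCAGCTGTCAGAAGCTc
miR1863a: AGCTCTGATACCATGTTagattag
miR1863b: AGCTCTGATACCATGTTaactgtt
miR1873: tcAACATGGTATCAGAGCTggaag
Only 1 read of miR1873 was counted in the 6 libraries, against 384 of miR1863a and 101 of miR1863b.

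The library totals behind the normalised counts were between 1078716 reads (P15-48) and 1644065 reads (P15-6). Levels are given as TPM, reads per 1000000 of that total, so that the limit of 3 reads which a count of 0 allows was 1.83 to 2.78 TPM. P15-6 stood apart from the other libraries: its total was 12.6% of its clean reads, against 7.85% to 10.2% elsewhere. Its TMM factor was 0.80 against 0.97 to 1.11. As TPM, the star strands of 6 conserved families summed to 11280 in it against 18020 to 24268. Most of that sum was 1 sequence, miR168a-3p, with 129116 of 152631 star reads. Per 1000000 clean reads the star sum did not set P15-6 apart, at 1417.7 beside 1414.4 in P15-48 and 1847.9 to 2476.9 in the others. The part of these library differences in the results below was not tested, and several values are given under other scalings. The juvenile miRNA miR156 summed to 20491 to 34243 TPM and the adult-phase miR172 to 38.9 to 83.4 TPM.

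Among the less conserved families, without the excluded miR827, miR1425, miR1432, miR1861 and miR1862, 24 nt was the length that held most reads. The 72 members had 63011 reads, 79.04% of the reads of those families, while 69 sequences of 21 nt had 17.3%. A 5′ adenine was found in 38 of 72 members (52.8%), and these held 82.15% of member reads. Of the 116 sequences with 20 to 22 nt in the same range of families, 19.8% began with adenine and 55.2% with uracil, against 30.6% of members with uracil.

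**Figure D1:**
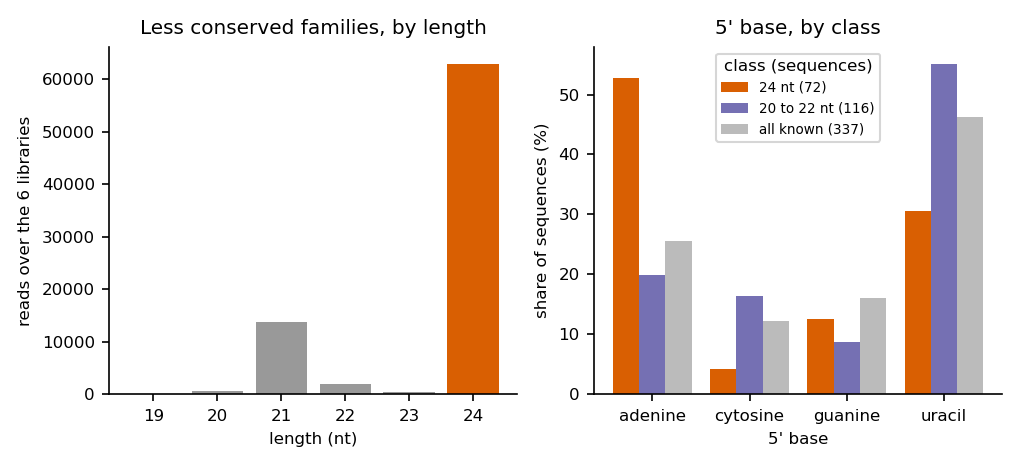
Left, reads over the 6 libraries of less conserved rice families by length of the mature sequence in nt, with the 24-nt class in orange. Right, share of sequences (%) by 5′ base for the 72 members, the 116 sequences of 20 to 22 nt in the same range of families and all 337 known sequences. Adenine began 52.8% of members and 19.8% of the 20- to 22-nt sequences.

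Reads were concentrated in a few members. The 5 most abundant held 72.07% of member reads and the 10 most abundant 90.84%, while 32 members had fewer than 20 reads over all libraries. A read in all 6 libraries was found for 44 members, and 56 to 61 members had a read in any 1 library. For 34 members there were at least 60 reads in all, a mean of 10 per library, and levels and ratios are described over these.

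Summed over the 72 members, the level was 8696, 8633 and 7288 TPM in PC at 0, 6 and 48 h and 7811, 6572 and 8493 TPM in P15. The class was thus 0.657% to 0.870% of a library total, lowest in P15-6, and the 95% counting intervals of P15-6 (6449 to 6697 TPM) and PC-48 (7141 to 7437 TPM) lay below those of the other libraries. The order changed with the denominator. Per 1000000 clean reads the members summed to 843.1, 829.0 and 652.7 in PC at 0, 6 and 48 h, and P15 gave 797.2, 826.0 and 666.7, so that in both lines the 48 h library was then the lowest and P15-6 stood beside PC-6. With TPM, 19 of the 34 members (55.9%) were lowest in P15-6, beside 50.6% of all 168 known sequences with at least 60 reads. With clean reads as totals 2 of 34 (5.88%) were, beside 16.7% of the 168. The lower sum of P15-6 was therefore not seen on every scale.

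**Figure D2:**
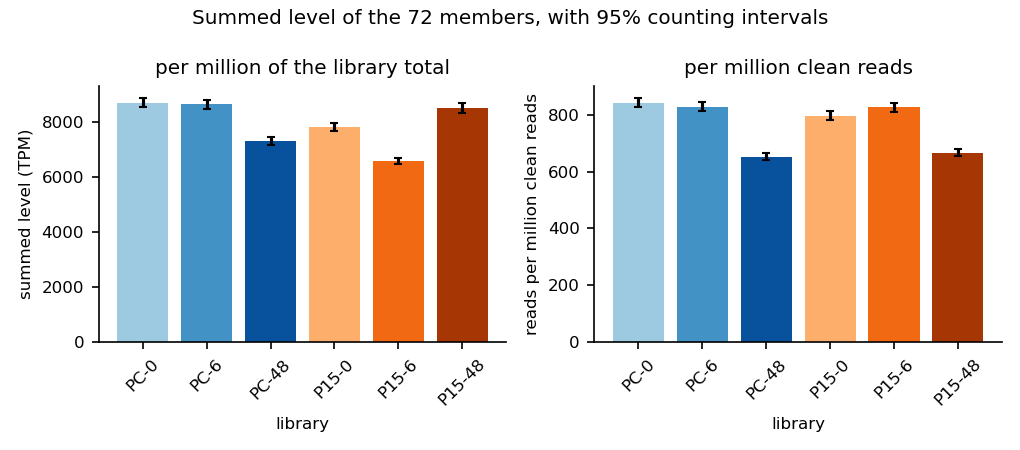
Summed level of the 72 members in each library, in TPM (left) and in reads per 1000000 clean reads (right). Bars start at 0 and error bars are 95% counting intervals. P15-6 is lowest on the left at 6572 TPM, and PC-48 and P15-48 are lowest on the right at 652.7 and 666.7.

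The most abundant member, miR1876, was counted at 1985, 1733 and 1781 TPM in PC at 0, 6 and 48 h and at 1905, 1639 and 2221 TPM in P15. As TPM it was highest in P15-48 and lowest in P15-6, and its highest level was 1.36 times its lowest. As a share of member reads, which needs no library total, it was lowest in PC-6 at 20.1% and highest in P15-48 at 26.2%. In P15-6 that share was 24.9%, so its place as the lowest library depended on the scale. By reads miR1876 ranked 18 among all known sequences. For miR1883a the levels were 1424, 1260 and 837 TPM in PC and 1000, 778 and 1010 TPM in P15. As TPM they were lower at each later time in PC, while in P15 the 48 h library was at the 0 h level. The comparison of P15-48 with P15-0 depends on the scaling: the members' median log2 ratio was 0.15 with library totals and -0.22 with clean reads. The entry of its copy miR1883b, with the same mature sequence, had 2181 reads against 8368, and reads shared between the copies cannot be told apart. For miR1423-5p the levels were 1159, 1355 and 795 TPM in PC and 1108, 787 and 992 TPM in P15, highest in PC-6 and lowest in P15-6. As a share of member reads it was lowest in PC-48, at 10.9%, and 12% in P15-6.

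Levels of miR2880 were 849, 1115 and 824 TPM in PC and 918, 898 and 1067 TPM in P15, within 1.35-fold over the 6 libraries. The flattest of the 10 most abundant members was miR2871a-5p, at 838, 813 and 719 TPM in PC and 837, 689 and 872 TPM in P15, a range of 1.27-fold. In contrast, miR1878 was at 716, 581 and 580 TPM in PC and 454, 425 and 562 TPM in P15. As TPM the lines were apart at 0 and 6 h and close at 48 h. Under TMM, median-of-ratios and clean reads the 6 h ratio of P15 to PC was 0.918, 0.974 and 0.957, with intervals that covered 1. The rice miRNA miR1871, reported to weaken blast resistance, was at 275, 265 and 311 TPM in PC and 316, 305 and 349 TPM in P15. As TPM and with median-of-ratios P15 was above PC at each time, but not with TMM or clean reads.

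The other members with over 1000 reads were arms of hairpins. Levels of miR5150-3p were 348, 326 and 331 TPM in PC and 294, 226 and 315 TPM in P15. For miR2878-5p they were 201, 228 and 212 TPM in PC and 170, 139 and 206 TPM in P15. For miR1865-3p they were 142, 155 and 146 TPM in PC and 117, 103 and 130 TPM in P15. As TPM all of these were lower in P15 at each time and lowest in P15-6. Under TMM, median-of-ratios and clean reads 4, 1 and 2 of the 34 members were lowest in P15-6. For the 168 known sequences these shares were 22%, 20.2% and 16.7%.

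Below these, members did not share 1 profile. The level of miR5805 was 35.7, 34.2 and 39.7 TPM in PC and 45.6, 51.1 and 28.7 TPM in P15. As TPM it was highest in P15-6, where most members were low on that scale, and lowest in P15-48. The ratio of P15-6 to PC-6 was 1.5 (95% counting interval 1.02 to 2.21). Levels of miR1880 were 59.5, 51.6 and 56.1 TPM in PC and 52.6, 46.8 and 33.4 TPM in P15. P15-48 stood below the other libraries, with ratios of 0.595 (0.387 to 0.899) to PC-48 and 0.635 (0.414 to 0.956) to P15-0. For miR2873a the levels were 45.4, 44.5 and 48.3 TPM in PC and 32.3, 29.2 and 51.0 TPM in P15. With library totals it was higher in P15-48 than in P15-0 by a ratio of 1.58 (1.05 to 2.39). The members' median log2 ratio in that comparison went from 0.15 to -0.22 with clean reads, and the ratio of miR2873a is not given on that scale. The ranges of miR2863c, miR5145 and miR5814 were 32.0 to 46.1, 26.2 to 36.5 and 17.1 to 32.2 TPM.

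Over the 34 members the highest level was 1.27 to 4.89 times the lowest, with a median of 1.79. The median was 2.03 over all 168 known sequences and 2.21 over the 27 sequences of 20 to 22 nt in the same range of families. The widest ranges belonged to members with few reads: miR812t at 4.89-fold had 109 reads, miR5156 at 4.50-fold 70 and miR5143a at 4.24-fold 101. All 10 members with at least 1000 reads stayed within 1.83-fold.

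**Figure D3:**
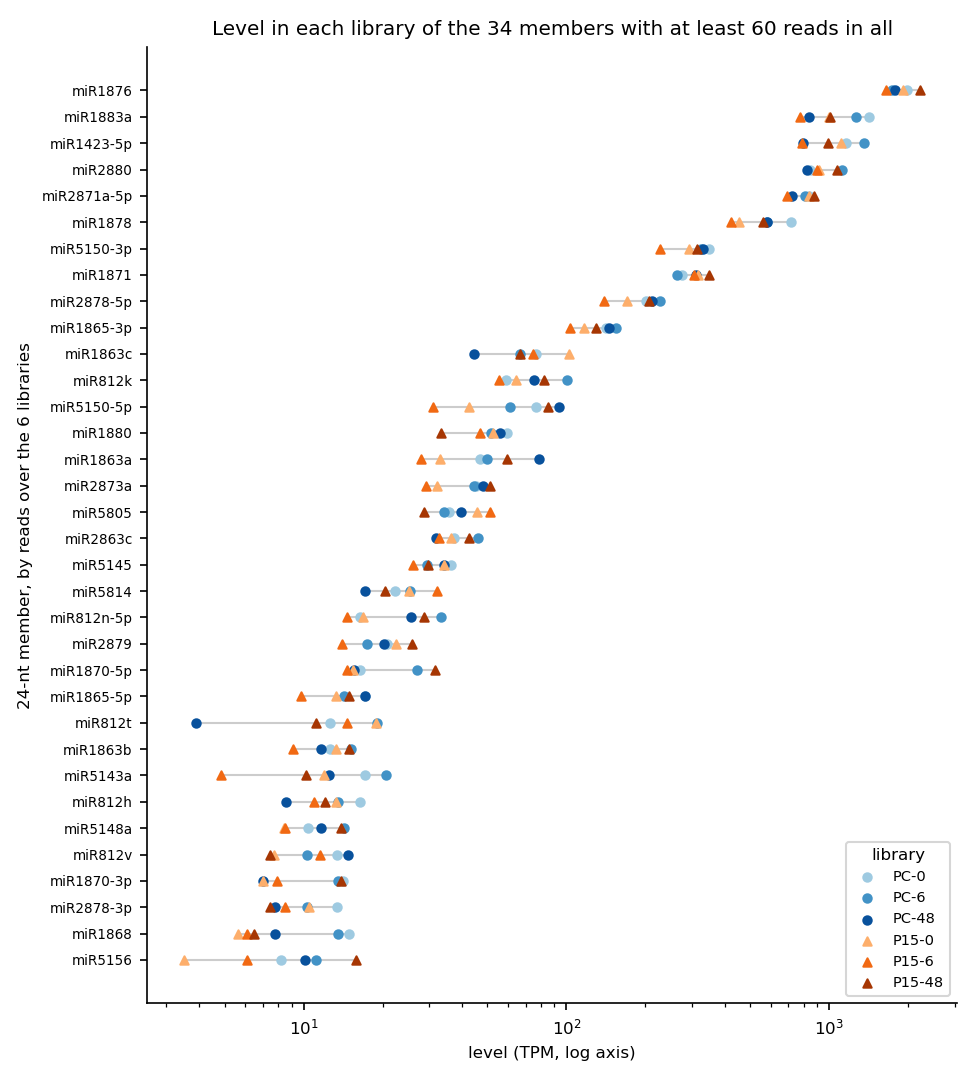
Level of the 34 members with at least 60 reads, in TPM on a log axis, 1 point per library (circles PC, triangles P15, darker with time) and a grey line from the lowest to the highest. The 10 members with at least 1000 reads span at most 1.83-fold, and miR812t spans 4.89-fold.

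The additive fit asked whether the lines, or the times, differed across the 6 libraries. It was run with edgeR's quasi-likelihood test over 181 known sequences with line and time as terms, and the line-by-time differences, with 2 residual degrees of freedom, served as error. Of the members, 34 were tested and 38 were too low. For P15 against PC, 0 of 34 members passed an adjusted p of 0.05, where 4 of 181 sequences passed (2.21%). For 6 h and for 48 h against 0 h, 0 members and 0 of the 181 sequences passed (0%). At an unadjusted p under 0.05 there were 5, 1 and 4 members for line, 6 h and 48 h. DESeq2 called 0 members in each, where 7, 0 and 1 of the 181 sequences passed, with 0, 0 and 1 members unadjusted. The common coefficient of variation between libraries was 0.187, and differences are given with their standard error (SE).

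The members with the lowest p for line were as follows. The log2 difference of P15 from PC was -0.58 for miR5150-5p (SE 0.21, adjusted p = 0.356, edgeR) and -0.52 for miR1863a (SE 0.20, adjusted p = 0.360, edgeR). It was -0.90 for miR1868 (SE 0.34) and -0.87 for miR5143a (SE 0.35), also at an adjusted p of 0.360. Without PC-0 or P15-0 the difference of miR1868 was -0.57, and that of miR5143a was -0.47 without PC-6 and -0.51 without P15-6. Only miR1863c among these members was higher in P15, by 0.46 (SE 0.18). Over the 34 members the median log2 difference between lines was -0.18, with 23 below and 11 above 0, beside -0.03 over all 181 sequences.

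The 5p arm of miR5150 and miR1863a had like profiles. The level of miR5150-5p was 76.6, 61.2 and 93.5 TPM in PC and 42.8, 31.0 and 85.3 TPM in P15. Both lines were highest at 48 h, and P15 was lower at each time. The profile of miR1863a was 46.9, 50.1 and 78.7 TPM in PC and 33.0, 28.0 and 59.3 TPM in P15, again highest at 48 h and lower in P15. For 48 h against 0 h over both lines the log2 differences were 0.72 for miR5150-5p (SE 0.25) and 0.88 for miR1863a (SE 0.24), with adjusted p of 0.218 and 0.202 by edgeR. Another member of that family had a different course: miR1863c was at 76.6, 66.7 and 44.4 TPM in PC and 102.4, 74.8 and 66.8 TPM in P15. It was lowest at 48 h in both lines, with a log2 difference from 0 h of -0.62 (SE 0.22, adjusted p = 0.218, edgeR), and higher in P15 at each time. The third, miR1863b, ranged from 9.12 to 15.1 TPM with a line difference of -0.04 (SE 0.28). The remaining members with an unadjusted p under 0.05 were miR2880 for 6 h, with a log2 difference of 0.47 (SE 0.17), and miR5156 for 48 h, with 1.23 (SE 0.50). The first was 0.19 without TMM. The second rested on single libraries: it was 0.62 without P15-48, 0.69 without P15-0, 1.91 without PC-48 and 2.03 without PC-0.

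At all 3 times 12 of the 34 members were below PC in P15 and 3 were above it, as TPM. Under all of 4 scalings (library totals, TMM, median-of-ratios and clean reads), 9 members (26.5%) were below at every time and 2 (5.88%) above, beside 11.3% below and 11.3% above of the 168 known sequences. The 9 were miR1878, both arms of miR5150, both arms of miR1865, miR2878-5p, miR1863a, miR5143a and miR1868, and the 2 were miR1863c and miR5814. These sets were picked after their values were seen and are a description, with no test, and arms of 1 hairpin share their precursor. As TPM, each of the 9 had its ratio nearest to 1 at 48 h, but under TMM only 3 did, under median-of-ratios 5 and under clean reads 2. The TPM ratios of miR1878 were 0.635 (95% counting interval 0.574 to 0.702), 0.731 (0.658 to 0.812) and 0.969 (0.869 to 1.08) at 0, 6 and 48 h. Those of miR5150-5p were 0.558 (0.400 to 0.773), 0.507 (0.349 to 0.732) and 0.912 (0.687 to 1.21), and at 48 h both intervals covered 1. With TMM and with clean reads the 48 h ratio of miR1878 was 0.848 (0.761 to 0.945) and 0.849 (0.762 to 0.947), below 1. Its 6 h ratio was 0.918 (0.826 to 1.02) with TMM, 0.974 (0.877 to 1.08) with median-of-ratios and 0.957 (0.861 to 1.06) with clean reads. Only at 0 h did the interval of miR1878 lie below 1 under all 4 scalings.

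**Figure D4:**
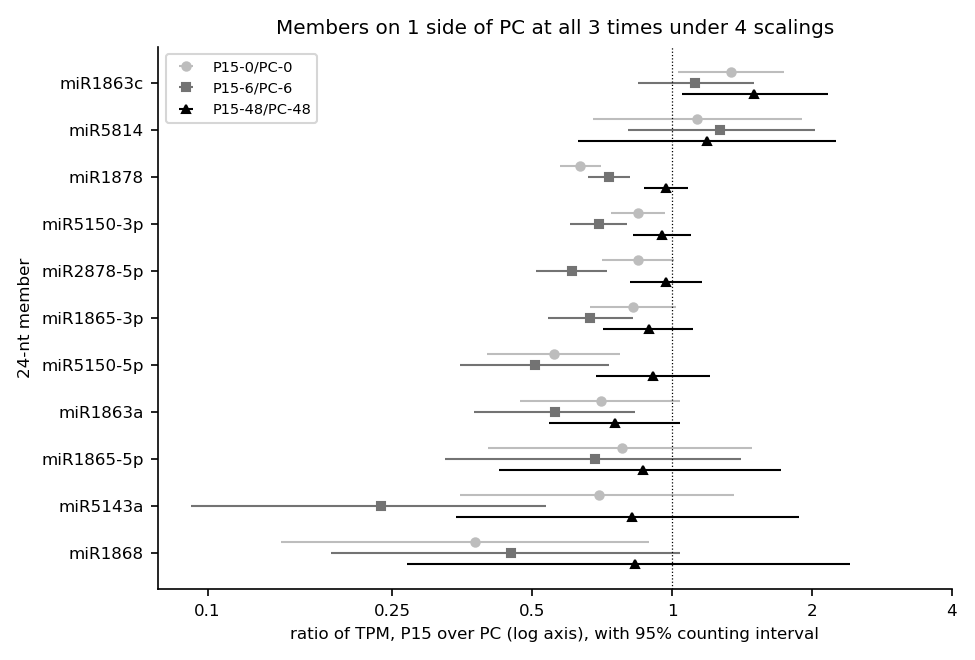
Ratio of TPM in P15 over PC (log axis) at 0, 6 and 48 h for the 11 members on the same side of PC at all 3 times under 4 scalings, with 95% counting intervals and 1 library on each side. With these library totals the 48 h point lies nearest to 1 for each of the 9 members below PC, which held for 3, 5 and 2 of them with TMM, median-of-ratios and clean reads.

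Between single libraries 7 comparisons were made at the study's thresholds, a ratio of 2 and a P of 0.05 in edgeR. The exact test and a dispersion of 0, which leaves counting error alone, were choices made here, since the sources give neither for the study. Such a call compares 2 libraries and not 2 conditions. Called members were few: 12 calls in the 7 comparisons fell on 7 members, and in 6 of the 12 both libraries had fewer than 20 reads. The ratio stayed within 2-fold for 31 to 33 of the 34 members with at least 60 reads in every comparison. Comparisons that use 1 library in common, such as P15-0/PC-0 and P15-6/P15-0, are not independent.

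Before feeding, in P15-0/PC-0, 2 of 65 members with a read were called, where 5.18% of all known sequences were. The call on miR1868 (tCACGGAAaacgagggagcagcca) rested on 8 reads in P15-0 and 20 in PC-0, a ratio of 0.377 (95% counting interval 0.144 to 0.893). Its levels were 14.9, 13.5 and 7.79 TPM in PC and 5.61, 6.08 and 6.49 TPM in P15. The ratios at 6 and 48 h were 0.45 (0.184 to 1.04) and 0.833 (0.269 to 2.42), with intervals that covered 1. The call on miR2121a (aAAACGGAgcggtccattagcgcg) rested on 10 reads against 2, a ratio of 4.71 (1.00 to 44.2). Both calls were kept under the 3 other scalings and lost with a coefficient of variation of 0.2. Median ratio over the 34 members was 0.865, or -0.21 as log2, beside 0.05 over all 168 sequences, and 24 members were below 1.

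At 6 h, in P15-6/PC-6, 2 of 64 members were called and both were lower in P15-6, where 8.85% of known sequences were called. The counts of miR5143a (tGTGGTATgttggcaatgtaggaa) were 23, 26 and 16 in PC over the 3 times against 17, 8 and 11 in the P15 libraries, and its ratio at 6 h was 0.236 (0.0922 to 0.536). That call was kept under TMM, median-of-ratios and clean-read scaling and with a coefficient of variation of 0.2. The other was miR812n-5p, with 24 reads in P15-6 and 42 in PC-6 and a ratio of 0.437 (0.253 to 0.739), and it was not kept under any of the 3 other scalings. The median log2 ratio over the members was -0.54 beside -0.38 over all sequences, and -0.21 beside -0.06 with TMM.

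At 48 h, in P15-48/PC-48, 2 of 64 members were called where 5.98% of known sequences were, and no member call was kept under the 3 other scalings. These were miR1870-5p (tGCTGAATtagacctagtgggcat), with 34 reads against 20, and miR812t, with 12 against 5. Of the 34 members 20 were above 1, with a median log2 ratio of 0.16 beside 0.15 over all sequences. With TMM 16 were above 1, with a median of -0.03 beside -0.05, and clean reads gave the same count and a median of -0.03.

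During feeding on PC, 1 of 64 members was called in PC-6/PC-0 (3.95% of known sequences) and 1 of 65 in PC-48/PC-0 (8.12%), both of them miR812. In P15, 2 of 66 members were called in P15-6/P15-0 (13.3%) and 2 of 65 in P15-48/P15-0 (6.27%). With clean reads as totals the last count was 4, of which 3 were lower, where 43 of 303 known sequences were called, and the median log2 ratio of the members turned from 0.15 to -0.22. The calls at 6 h were miR5143a, with 8 reads against 17, and miR2121a, with 2 against 10, and both were lost with TMM. At 48 h they were miR1870-5p, with 34 reads against 22, and miR5156 (aGCCTGTAaaactgcaaaaaggaa), with 17 against 5. The levels of miR5156 were 8.19, 11.1 and 10.1 TPM in PC and 3.51, 6.08 and 15.8 TPM in P15. It was lowest in P15-0 and highest in P15-48, with a ratio of 4.49 (1.59 to 15.6) between them, a call kept under the 3 other scalings, while that on miR1870-5p was lost with TMM and with clean reads. The median log2 ratio of members in P15-6/P15-0 was -0.22 with library totals and 0.21 with TMM, beside -0.44 and -0.02 over all sequences, so its direction depended on the scaling.

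The 10 miR812 sequences summed to 129.5, 189.1 and 142.6 TPM in PC and 129.7, 111.9 and 150.2 TPM in P15. The sum was highest in PC-6, whose 95% counting interval (165.8 to 214.7 TPM) overlapped only that of P15-48 (127.9 to 175.2 TPM). Per 1000000 clean reads it was 18.2 in PC-6 and 11.8 to 14.1 in the other libraries. The family level was thus higher at 6 h than at 0 h between the PC libraries beyond counting error, and not between those of P15. Whether the conditions differed was not tested.

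Of 1126 miR812 reads, 575 belonged to miR812k, whose sequence is also that of miR812l and miR812m. It was at 58.8, 100.9 and 75.6 TPM in PC and 64.5, 55.4 and 82.5 TPM in P15, highest in PC-6. A parallel course was seen for miR812n-5p, at 16.4, 33.4 and 25.7 TPM in PC and 16.8, 14.6 and 28.7 TPM in P15. Its ratio of PC-6 to PC-0 was 2.04 (1.19 to 3.59), a call kept under the 3 other scalings but lost with a coefficient of variation of 0.2. The complementary sequence miR812t was at 12.7, 19.1 and 3.90 TPM in PC and 18.9, 14.6 and 11.1 TPM in P15. It was lowest at 48 h in both lines, with 5 reads in PC-48 against 17 in PC-0 and a ratio of 0.308 (0.0888 to 0.870), a call lost with TMM. In the additive fit its log2 difference for 48 h was -1.04 (SE 0.44, adjusted p = 0.315, edgeR).

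The remaining miR812 sequences were scarce. There were 100 reads of miR812h, 88 of miR812v and 39 of miR812f, and 14 or fewer of miR812o-3p, miR812p, miR812s and miR812q. Copies were not counted alike: the entries miR812h, miR812i and miR812j had 100 reads each and miR812g, with the same sequence, 42.

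The arms of a hairpin could be compared within a library, where the library total cancels. For miR5150 the 5p arm held 18.1%, 15.8% and 22% of both arms' reads in PC at 0, 6 and 48 h, and 12.7%, 12.1% and 21.3% in the P15 libraries. The share was lowest in P15-0 and P15-6 and highest at 48 h in both lines. Between P15-48 and P15-0 the odds of the 5p arm were 1.86 times as high (95% exact interval 1.29 to 2.70), and between PC-48 and PC-0 1.28 times (0.944 to 1.74). Between P15-0 and PC-0 they were 0.660 times (0.460 to 0.942). These intervals cover counting error only.

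For miR812n the 5p arm held 57.9%, 63.6% and 89.2% in PC and 48.0%, 51.1% and 72.1% in P15, also highest at 48 h in both lines. The odds were 5.86 times as high in PC-48 as in PC-0 (1.61 to 27.3) and 2.77 times in P15-48 against P15-0 (1.09 to 7.36), from 4 to 42 reads per arm. The 3p reads may also come from miR812t and miR812u, which have the same sequence.

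In the hairpins of miR2878 and miR1865 the same arm was the higher in all 6 libraries. The 5p arm held 93.8% to 96.5% for miR2878 and 8.45% to 10.7% for miR1865. For miR1870 it held 53.7% to 69.4%, with intervals that all overlapped. The 24-nt 5p arm of miR2871a held 70.5% to 80.0% beside a 21-nt 3p arm, lowest in PC-48 and highest in P15-6, and its odds in P15-48 against PC-48 were 1.38 (1.15 to 1.66). For miR1423 the 3p arm had 1 read against 8228 of the 5p arm.

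**Figure D5:**
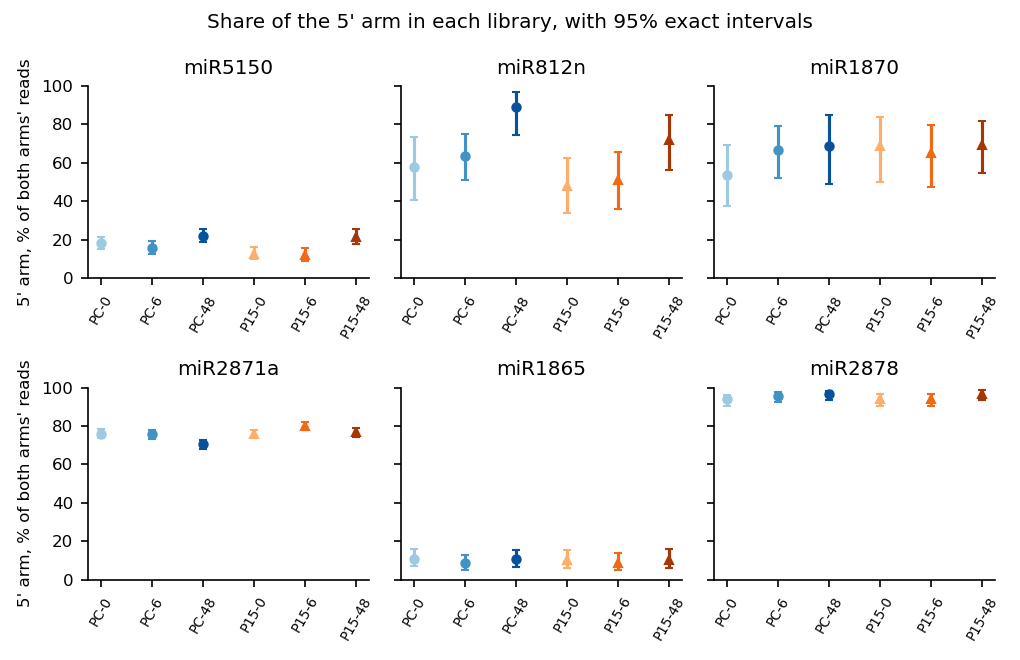
Share (%) of the 5p arm among the reads of both arms of 6 hairpins in each library, with 95% exact binomial intervals (circles PC, triangles P15). The miR5150 share is highest at 48 h in both lines, at 22% and 21.3%, while miR1865 stays between 8.45% and 10.7%.

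Entries of the table outside the known rice set also overlapped members. Among the 34 members with at least 60 reads, 22 shared a run of at least 18 bases with an entry matched to another plant or predicted in rice, and those entries had a median of 5.67% of the member's reads. For miR812v, with 88 reads, a predicted entry overlapping it had 190 reads, so that its level depends on which entry is taken as the mature form.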

How the data were processed

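Per the labels and the study's methods, the authors sequenced size-selected small RNA, removed reads matching other RNA classes in GenBank release 209.0 or in release 11.0 of Rfam and reads mapping to exons, introns and repeats, and matched the remainder to miRBase (release 21). For the aligner and genome build, the entry is: not given in the sources used here. In the deposited file, the table holds whole-number read counts per entry and TPM, a signal the authors computed as reads per 1000000 of a library total. Entries share reads, so the TPM of all entries sum to more than 1000000. The total was recovered as count over TPM. The table's column summed over samples was not used as a measurement, and 0 per-sample columns were left unmapped. Removal of repeat-mapping reads may lower members that lie in transposable elements.

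Members and lists were chosen with earlier results of these data known. The sequences named were every miR812 sequence, the 15 members with the most reads, members called in a fit, members called in a pair whose larger library had 20 reads or more, and members that the study names, and others only where a comparison turned on them. Directions across scalings and arm shares were added after seeing the data.

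The 6 libraries were fitted in edgeR 4.0.16 (limma 3.58.1, R 4.3.3) with TMM, filterByExpr and the quasi-likelihood test, with Benjamini-Hochberg adjustment over all known distinct sequences tested. The 7 pairs used edgeR's exact test with dispersion 0 at a log2 ratio of at least 1 and P under 0.05. Libraries of other times stand in for replicates in the first, and the second covers counting error only. Ratio and share intervals are 95% exact binomial intervals, and those of summed levels are exact Poisson intervals (scipy 1.17.1). Reads are PCR copies without molecular identifiers, so all intervals and the limit of 3 reads cover counting error alone. Alternatives were DESeq2 1.42.0, other scalings (TMM, median-of-ratios, clean reads as the study lists them), other filters, a coefficient of variation of 0.2, other handling of copies and leaving out each library. No coordinates are given, since no genome with the miRNA loci was used here.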

Additional observations from a re-analysis of the deposited data

Results flagged for a closer look

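The change from 0 h differed between the lines beyond counting error, under all 4 scalings, for 3 of the 34 members tested. Each comparison used 4 single libraries, with Benjamini-Hochberg adjustment over the 168 known sequences with at least 60 reads. How many of all 168 passed under the same scalings is not given here, so the 3 members were not compared with that background. From 0 h to 6 h, miR1423-5p went from 1159 to 1355 TPM in PC and from 1108 to 787 TPM in P15, and the log2 change in P15 minus that in PC was -0.72 (counting SE 0.07). Under TMM it was -0.43, under median-of-ratios -0.28 and under clean reads -0.40, beside a median of -0.30 over all sequences with library totals. From 0 h to 48 h, miR1883a went from 1424 to 837 TPM in PC and from 1000 to 1010 TPM in P15, a difference of 0.78 (counting SE 0.08), and of 0.52 to 0.78 over the scalings. Over the same interval miR1878 went from 716 to 580 TPM in PC and from 454 to 562 TPM in P15, a difference of 0.61 (counting SE 0.11), and of 0.35 to 0.61 over the scalings. The spread between replicate libraries is unknown, so a difference between conditions was not tested.

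A 24-nt entry outside the known rice set, MIR812-y, which was matched to miRNAs of other plants, had 13388 reads, against 1126 of all 10 rice miR812 sequences together. It matched miR812s at 21 of 24 positions, while miR812s had 12 reads. Its levels were 1990, 1710 and 1542 TPM in PC and 1691, 1553 and 1499 TPM in P15, lower at 48 h than at 0 h in both lines, with ratios of 0.775 (95% counting interval 0.731 to 0.821) and 0.887 (0.832 to 0.945). In each library it had 9.05 to 15.4 times the reads of the miR812 members, so the summed miR812 level depends on whether this entry is counted.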

How the results depend on the processing

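The additive fits called 0 members for line, 6 h and 48 h under DESeq2, without TMM, without a filter, with all entries and with the copy of fewest reads. Over all sequences, line calls were 7 of 181 with DESeq2, 4 of 181 without TMM and 9 of 337 without a filter. With all entries and with the copy of fewest reads there were 9 of 181 each. Calls over all sequences were 0 to 2 for 6 h and 0 to 9 for 48 h. Leaving out a library leaves a single library at its time, so those fits give effect sizes only. Libraries of the 2 lines were paired by time in the additive fit, and with 1 library per condition no further replicate block could be fitted. Member calls between libraries were too few to be stable, and of 12 calls 5 were kept under the 3 other scalings and 5 with a coefficient of variation of 0.2. With TMM there were 1 (P15-6/PC-6), 0 (P15-48/PC-48), 0 (P15-6/P15-0), 1 (P15-48/P15-0) and 0 (PC-48/PC-0). Among all known sequences the calls were, in that order, 15 of 305, 14 of 301, 21 of 308, 20 of 303 and 21 of 308. With median-of-ratios there were 1 (P15-6/PC-6), 0 (P15-48/PC-48), 0 (P15-6/P15-0) and 3 (P15-48/P15-0). All known sequences gave, in that order, 17 of 305, 16 of 301, 20 of 308 and 17 of 303. With clean reads there were 1 (P15-6/PC-6), 0 (P15-48/PC-48), 1 (P15-6/P15-0) and 4 (P15-48/P15-0). For all known sequences these were 15 of 305, 14 of 301, 22 of 308 and 43 of 303. With a coefficient of variation of 0.2 there were 0 (P15-0/PC-0), 0 (P15-48/PC-48), 0 (PC-6/PC-0), 1 (P15-6/P15-0) and 1 (P15-48/P15-0). Calls over all known sequences were then 12 of 309, 13 of 301, 7 of 304, 38 of 308 and 11 of 303. Where 20 reads were required in 1 of the 2 libraries there were 1 (P15-0/PC-0), 1 (P15-48/PC-48), 0 (P15-6/P15-0), 1 (P15-48/P15-0) and 0 (PC-48/PC-0). Known sequences with that many reads gave 11 of 152, 10 of 142, 31 of 149, 13 of 149 and 20 of 151. With the copy of fewest reads the summed level was 7688, 7660 and 6648 TPM in PC and 7104, 5938 and 7731 TPM in P15 at 0, 6 and 48 h, lowest in P15-6 as before. With the copy of most reads, the sum per 1000000 clean reads was 843.1, 829.0 and 652.7 in PC, and P15 gave 797.2, 826.0 and 666.7. The cause was not tested. Members with fewer than 20 reads cannot show differences under several-fold.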
